A study of Sus scrofa with 42 samples.

Results

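The step from the 4-cell to the 8-cell stage was followed in single blastomeres of in vitro fertilized (IVF) pig embryos, for which oocytes matured in culture were fertilized by sperm in a dish. It was covered by 12 of the 42 cells sequenced in the series, chosen by their labels alone: 9 IVF 4-cell blastomeres of 3 embryos and 3 IVF 8-cell blastomeres of 1 embryo. The 4-cell embryos gave 3, 2 and 4 blastomeres, and blastomeres are named here by embryo and number, such as 2-3. Cells were collected 48 h and 72 h after the end of co-incubation with sperm, by the methods of the study. The other 30 cells were IVF 1- and 2-cell samples and the same 4 stages of parthenogenetically activated (PA) embryos, oocytes started into division without sperm. They were 20 embryos in 8 groups in all. The labels name no genotype, strain or treatment that differs between the 4-cell and the 8-cell cells. Stage, hours in culture and the 1 embryo sampled at the 8-cell stage cannot be told apart.

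In mammals the first cleavages run on RNA and protein stored in the oocyte. During the maternal-to-zygotic transition the stored transcripts are degraded, in large part after removal of their poly(A) tails, while the embryo's own genome is switched on. In the pig the main wave of embryonic transcription is placed around the 4-cell stage, so that the step to the 8-cell stage contrasts cells near the start of that wave with cells after it.

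Cells were compared by FPKM, reads scaled by gene length and library depth, which the authors deposited for 15351 genes. A gene was tested if at least 3 of the 42 cells had 1 FPKM or more, which held for 8116 genes. The 8-cell cells counted towards the 3, so a gene could pass through them alone. The value of an embryo was the mean over its blastomeres. Differences are given as log2 differences between embryo means after adding 1 FPKM, a scale that understates the change of weakly expressed genes. The 8-cell group has no spread of its own between embryos, and limma lent it the spread of the remaining groups, since sister blastomeres are not replicates of a stage. A gene was called when it changed at least 2-fold with a Benjamini-Hochberg adjusted p under 0.05 in limma.

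Depth was similar at both stages. The 4-cell blastomeres held 5975334 to 15049577 reads on genes and the 8-cell blastomeres 5641521 to 14116739. Between 4367 and 7071 genes were detected above 0 FPKM in a 4-cell blastomere, and 4839 to 6510 in an 8-cell blastomere. The embryo means were 6263 ± 334 genes (SD, n = 3) and 5790, and the exact permutation test gave p = 0.5, the smallest that 1 embryo against 3 allows. Mitochondrial mRNAs made up 38.4%, 26.7% and 33.6% of the summed FPKM of the 4-cell embryos and 39.5% of the 8-cell embryo, with the same p. By blastomere the share was 24.6% to 41.8% at the 4-cell stage. The 8-cell sisters, at 23.9%, 46.8% and 45.2%, lay on both sides of that range.

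Oocyte genes were abundant in the 4-cell cells and nearly absent from most 8-cell cells. The summed FPKM of the oocyte markers was 537 to 2456 in the 4-cell blastomeres and 24.6, 7.76 and 198 in the 8-cell blastomeres, so the groups did not overlap. The 18 cumulus and granulosa markers measured summed to 75.4 FPKM in blastomere 2-2 and to between 0.337 and 35.8 elsewhere. Of these markers 9 passed the filter on low values. NR5A1, which did not pass, gave 32.6 of the 35.8 FPKM, in 8-cell blastomere 1-3. Sperm markers summed to at most 8.48 FPKM, and 1 of them passed the filter. No cumulus or sperm marker was called, and their part in the results was not tested. An alternative taken from earlier work on these data left out the 4-cell blastomeres 1-2, 1-4, 3-2 and 3-3, called the 4 marked blastomeres here. Their Spearman's rho with IVF 2-cell cells, across genes, was 0.700, 0.570, 0.501 and 0.665, against 0.382 to 0.545 in the other 5, so the 2 sets overlapped (0.545 in blastomere 1-1). Genes of the Y chromosome were read at under 1 FPKM in sum in all 3 blastomeres of 4-cell embryo 1, at 0.0639 and 101 in embryo 2, between 0.0740 and 79.8 in embryo 3, and at 326, 263 and 53.9 FPKM in the 8-cell blastomeres. Of the Y-linked genes 3 were called, all of them higher at the 8-cell stage, and 4-cell embryo 1 was among the embryos they were compared with.

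At the 8-cell stage 302 genes were higher (3.72% of those tested) and 264 were lower (3.25%). With cells scaled by their median ratio 997 were higher and 159 lower, and with the 2 groups fitted alone none were called in limma, where 809 genes had an unadjusted p under 0.05. An unadjusted p under 0.05 was reached by 764 higher and 810 lower genes. The genes that rose had a median of 0.219 FPKM at the 4-cell stage and 20.6 FPKM in the 8-cell embryo, and their median log2 difference was 3.90. The genes that fell went from a median of 36.3 to 0.202 FPKM, with a median log2 difference of -4.34. Over all genes tested the median was -0.38, with a median standard error of 1.15.

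**Figure D1:**
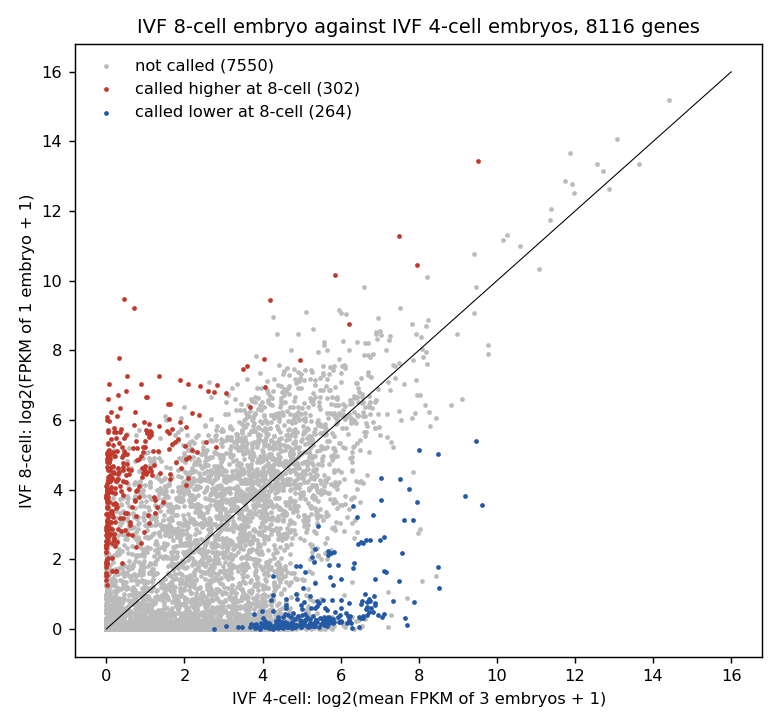
Mean FPKM of each gene tested in the IVF 8-cell embryo against the mean of the 3 IVF 4-cell embryos, both on a log2(FPKM + 1) scale, with genes called higher and lower in colour. The 302 genes that rose lie mostly along the left edge, at a 4-cell median of 0.219 FPKM, and the 264 that fell along the bottom, at an 8-cell median of 0.202 FPKM.

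The called genes were also described at the earlier stages, whose embryos were part of the same fit. The same counts were not made over all genes tested, so how usual they are cannot be read from them. Of the 302 genes that rose, 179 were under 1 FPKM in both the 1-cell and the 2-cell embryos, and 139 of them were under 1 FPKM at the 4-cell stage as well. At the 1-cell stage 18 were over 10 FPKM. In the 8-cell embryo 300 were higher than in the 1-cell mean, but a high 8-cell value had chosen them. Of the 264 genes that fell, 237 were over 10 FPKM at the 1-cell stage and 235 at the 2-cell stage. In the 8-cell embryo, whose low values had chosen them, 214 were under 1 FPKM. Medians of the genes that fell were 44.5 FPKM at the 1-cell, 40.2 at the 2-cell and 36.3 at the 4-cell stage, and 0.202 at the 8-cell stage. FPKM is scaled to each library, so loss of a transcript and a larger share of other transcripts cannot be told apart from it.

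Every 8-cell blastomere exceeded every 4-cell blastomere for 100 genes (1.23% of those tested), and 55 of these were called. The reverse held for 185 genes (2.28%), of which 88 were called. The 15 largest rises and the 15 largest falls among called genes of this kind that carry a symbol are described next, and those named without a symbol are given by identifier.

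Among the 15 largest rises, QARS, the glutaminyl-tRNA synthetase, lay between 0 and 0.175 FPKM in the 9 4-cell blastomeres, with a median of 0.0362. It reached 327, 45.3 and 21.8 FPKM in 8-cell blastomeres 1-1, 1-2 and 1-3. The embryo means were 0.0444 ± 0.0221 (SD, n = 3) and 131 FPKM, a log2 difference of 6.99 (SE 0.94, adjusted p = 6.97e-05). GAR1, a protein of the box H/ACA particles that guide pseudouridylation of ribosomal RNA, was at 1.35 FPKM or less in every 4-cell blastomere and at 124, 113 and 222 in the 8-cell blastomeres (log2 difference 6.76, SE 1.505, adjusted p = 0.00756). All 3 of its 8-cell values were over 100 FPKM. EXOSC5, a subunit of the RNA exosome, had a 4-cell median of 0.0194 FPKM and a highest value of 3.07, and rose to 197, 35.6 and 6.38 (log2 difference 6.03). SDAD1, which acts in the assembly of the large ribosomal subunit, had 33.6, 28.4 and 86.4 FPKM at the 8-cell stage against at most 1.77 (log2 difference 5.34). It overlaps ENSSSCG00000039645 on the opposite strand (r = 0.624 over the 42 cells), so its value is uncertain.

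ASNA1, the ATPase that delivers tail-anchored proteins to the endoplasmic reticulum, was at 0 to 1.56 FPKM in the 4-cell blastomeres and at 17.9, 73.0 and 65.8 in the 8-cell blastomeres. Its log2 difference of 5.42 had the smallest standard error of these genes, 0.44 (adjusted p = 7.40e-07). EMC7, of the complex that inserts membrane proteins, rose from at most 0.543 FPKM to 47.1, 22.4 and 91.1 (log2 difference 5.596). BSG, or basigin, a partner of lactate transporters, rose from at most 5.12 FPKM to 127, 115 and 59.7 (log2 difference 5.81, adjusted p = 0.00331). TFRC, the transferrin receptor, was at 1870 FPKM in blastomere 1-1, 119.5 in 1-2 and 119 in 1-3, against 0.0300 to 50.6 in the 4-cell blastomeres. Its call (log2 difference 5.34, adjusted p = 0.0174) was lost without blastomere 1-1 (2.79) and without the 4 marked blastomeres (4.57).

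CRABP2, which carries retinoic acid, had a 4-cell median of 0.288 FPKM with 15.3 in blastomere 3-1, and reached 29.1, 41.3 and 390.2 FPKM (log2 difference 6.35, adjusted p = 2.71e-05). IPMK, an inositol phosphate kinase, rose from at most 0.786 FPKM to 50.05, 72.8 and 24.8 (log2 difference 5.47). Both were also called in PA embryos. CBX1, the heterochromatin protein HP1 beta, rose from at most 1.75 FPKM to 11.3, 72.1 and 66.3 (log2 difference 5.45). HAUS6, of the augmin complex that nucleates spindle microtubules, was at 0.0439 FPKM or less before and at 164, 31.7 and 3.80 afterwards (log2 difference 6.05). NEK9, a kinase of spindle assembly, had at most 0.199 FPKM and then 53.8, 23.4 and 39.1 (log2 difference 5.26, adjusted p = 4.77e-06). FAM76A had a log2 difference of 5.37 and was not called without blastomere 1-1 (3.98). CCDC59, with a log2 difference of 5.24, overlaps METTL25 on the opposite strand and followed it across the 42 cells (r = 0.931), so their reads cannot be told apart if counting ignored strand. ENSSSCG00000022773, a gene without a symbol, rose from at most 3.25 FPKM to 211, 57.0 and 73.9.

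**Figure D2:**
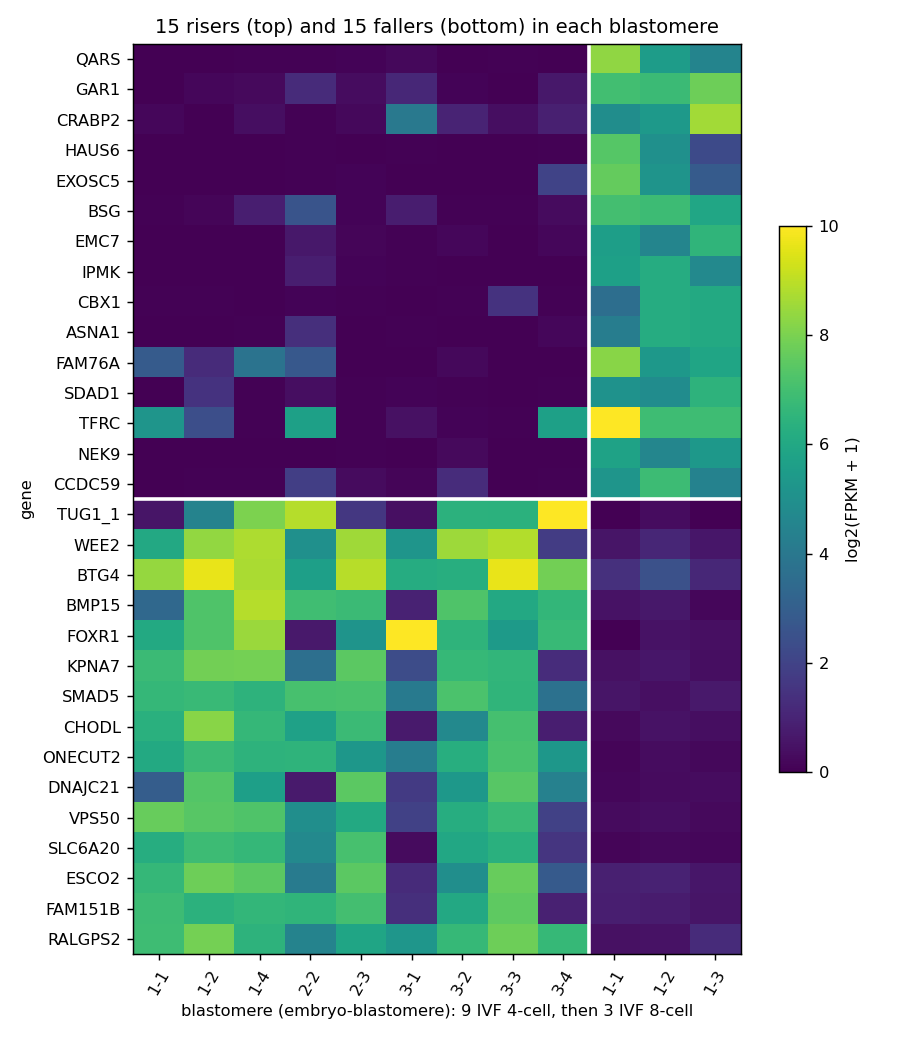
FPKM of the named genes with the largest rises and falls in the 9 IVF 4-cell and 3 IVF 8-cell blastomeres, 1 column per blastomere and 1 row per gene, coloured by log2(FPKM + 1) up to 10, beyond which the colour no longer changes. Rows that rose are dark in the 4-cell columns and brighter in the 8-cell columns, and rows that fell do the reverse, with 4-cell blastomeres 3-1 and 3-4 dark in several of them.

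A few highly expressed genes rose less steeply but in every blastomere. ARMC1 went from 23.5 to 370.4 FPKM in the 4-cell blastomeres to 2169, 1154 and 900.4 (log2 difference 2.52, SE 0.49, adjusted p = 0.00256). At the locus of the elongation factor eEF1A1, 2 annotated genes lie on opposite strands of chromosome 1 and correlated at r = 0.998 over the 42 cells, so they are 1 signal here. The first, ENSSSCG00000037674, was at 208 to 1207 FPKM in the 4-cell blastomeres and at 23540, 6537 and 3057 in the 8-cell blastomeres. Its log2 difference was 3.97 and that of ENSSSCG00000004489 was 3.86, and both calls were lost without blastomere 1-1 (2.77 and 2.69), the latter also without the 4 marked blastomeres (3.33).

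Among the 15 largest falls, WEE2, the oocyte kinase that restrains CDK1 and holds meiotic arrest, was at 2.46 to 455 FPKM in the 4-cell blastomeres, with a median of 335. It was at 0.495, 1.09 and 0.505 FPKM in the 8-cell blastomeres, and the embryo means went from 232 ± 39.6 to 0.697 FPKM (log2 difference -7.09, SE 0.69, adjusted p = 2.44e-06). BTG4, the adaptor that brings the CCR4-NOT deadenylase to stored mRNA, went from 48.8 to 803 FPKM down to 1.60, 4.58 and 1.14 (log2 difference -6.65, adjusted p = 1.81e-06). BMP15, a growth factor secreted by the oocyte, had a 4-cell median of 112 FPKM and at most 0.555 FPKM in an 8-cell blastomere (log2 difference -6.54). KPNA7, the importin alpha of oocytes and early embryos, had a median of 103 FPKM and then at most 0.518 (log2 difference -6.14). Their lowest 4-cell values, 0.943 FPKM for BMP15 and 1.41 for KPNA7 among them, were all above the highest 8-cell value of the same gene, as the choice of these genes required.

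TUG1_1, a conserved segment of the long noncoding RNA TUG1, showed the steepest fall, from a median of 81.6 FPKM to 0, 0.263 and 0, with 1 read in all in the 8-cell blastomeres (log2 difference -7.44, adjusted p = 1.07e-05). FOXR1, a forkhead transcription factor, fell by 6.50 on the log2 scale, and ONECUT2, a homeodomain factor, fell by 5.97. SMAD5, which carries bone morphogenetic protein signals to the nucleus, was at 12.2 to 143 FPKM and then at 0.494, 0.327 and 0.625 (log2 difference -6.03, adjusted p = 1.41e-05). ESCO2, which acetylates cohesin in S phase, went from a median of 98.8 to at most 0.917 FPKM (log2 difference -5.82). DNAJC21, a cochaperone of ribosome maturation, went from a median of 39.1 to at most 0.269 FPKM (log2 difference -5.92). CHODL fell by 5.98, VPS50 of an endosomal recycling complex by 5.91, SLC6A20, a proline transporter, by 5.88, FAM151B by 5.76 and RALGPS2 by 5.71. Without the 4-cell blastomeres 1-2, 1-4, 3-2 and 3-3 the calls of TUG1_1 (-5.69), CHODL (-4.14), DNAJC21 (-4.09), SLC6A20 (-4.36) and FAM151B (-4.20) were lost, and the other named falls were called. VPS50 and RALGPS2 overlap other genes on the opposite strand.

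Recognition elements of stored mRNA were looked for in the 3' untranslated regions (UTRs) of these genes, because proteins that bind them in oocytes control poly(A) tails. They were the Pumilio element TGTANATA and the cytoplasmic polyadenylation element TTTTAT, both on the transcript strand, and a site of one may share bases with a site of the other. RefSeq transcripts on Sscrofa11.1 gave a 3' UTR of at least 50 bases for 13 of the named falls, of which 6 held the Pumilio element and 12 the polyadenylation element. None of the 13 had a polyadenylation element in the last 100 bases with the poly(A) signal AATAAA after it, both within 30 bases. The first Pumilio site of each gene is shown in 30 bases, with the element in capitals, to let the flanks be compared. They lie at chr18:8171184-8171213 (minus strand) for WEE2, chr2:138339668-138339697 (plus) for SMAD5, chr13:182828346-182828375 (plus) for CHODL, chr1:106798712-106798741 (plus) for ONECUT2, chr2:89143910-89143939 (plus) for FAM151B and chr9:120722646-120722675 (plus) for RALGPS2.
WEE2: atcctttactcTGTACATAttttgaaagga
SMAD5: gttaaaaattgTGTATATAatcccgttgtt
CHODL: gtattccattgTGTATATAtaccacatctt
ONECUT2: caaattctgttTGTACATAatgcagatgca
FAM151B: atcacatccatTGTAGATAgaaagatagca
RALGPS2: tttcttcactaTGTAAATAttatttgtgtt
BTG4 and BMP15 held the polyadenylation element and not the Pumilio element. Their first such sites are at chr9:39253216-39253245 (minus strand) and chrX:44619617-44619646 (plus).
BTG4: ttttacatgaagTTTTATgtaaccctagtg
BMP15: ctctattgtcttTTTTATtgtgacttttgt

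Over all genes with a 3' UTR of at least 50 bases, 23.3% of the 266 that rose, 40.6% of the 239 that fell and 30.6% of the 7047 tested held a Pumilio element. Genes that fell also had longer 3' UTRs, with a median of 1270 bases against 698 for those that rose and 1007 for all. Per kilobase of 3' UTR the element occurred 0.361 times in genes that fell, 0.266 in genes that rose and 0.268 in all. The median share of G and C in these UTRs was 38.0%, 41.3% and 39.6%, and its part in the rates was not tested. The polyadenylation element was in 73.2%, 51.5% and 65.2% of these UTRs, or 1.46, 1.30 and 1.31 times per kilobase, and ATTTA, the core of AU-rich elements, 2.55, 2.48 and 2.44 times per kilobase. Near the end of the UTR and before AATAAA, the polyadenylation element was found in 3.81% of 236 genes that fell. The share was 2.02% of 248 that rose and 3.61% of 6810 in all. In the promoters, from 250 bases before to 50 after the start of transcription on both strands, CCGGAAG, a core of ETS factors, was found in 17.9% of genes that rose, 14.7% of those that fell and 16.9% of all. TATAAA was found in 7.50%, 7.54% and 7.59%. These shares are descriptions of the gene sets and have no test.

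Transcript length moved with the direction of change. Genes that rose had a median transcript of 2294 bases and genes that fell 4200, against 3265 for all 7535 genes with a RefSeq coding transcript. Among transcripts of up to 2329 bases 5.73% of genes rose and 2.27% fell, and among those of 4502 bases or more 2.07% rose and 4.50% fell. The median log2 difference was -0.13, -0.40 and -0.63 from the short to the long class. The part of length in the results by gene was not tested.

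Of the 64 ribosomal protein genes tested 12 rose and none fell, 18.8% against 3.72% of all genes higher, and 52 were not called. A positive log2 difference was found for 58, and the median was 2.45, against -0.38 over all genes. The median member went from 5.31 to 22.4 FPKM. In 12 members every 8-cell blastomere lay above every 4-cell blastomere, which held for 1.23% of all genes. Their summed FPKM was 63.5 to 2147 in the 4-cell blastomeres and 5932, 6159 and 3215 in the 8-cell blastomeres, so that all 3 exceeded all 9. As a share of the nuclear genes' FPKM the sum was 0.0732% to 1.60% and then 3.60%, 4.70% and 2.64%. RPS24, of the small subunit, rose from a median of 2.39 FPKM to 181, 25.5 and 10.6 (log2 difference 4.05, and 2.10 without blastomere 1-1, which was not called). RPS27A, with a log2 difference of 4.69, overlaps MTIF2 on the opposite strand (r = 0.852) and lost its call without blastomere 1-2 (3.26) or 4-cell embryo 1 (4.20) or 3 (4.32) or the 4 marked blastomeres (4.62), and RPS4X, with 4.18, was at 0.0205 FPKM in blastomere 1-3. RACK1 had 1519, 781 and 421 FPKM against at most 325 but was not called (log2 difference 4.95, SE 1.86, adjusted p = 0.13). The count of called members was 1 with 0.1 FPKM added and 38 when cells were scaled by their median ratio, and the list's median stayed 1.58 to 3.91 above that of all genes over the alternatives.

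Of 47 translation factors tested 7 rose and none fell, 14.9% against 3.72% of all genes higher, with a median log2 difference of 0.50. EIF3H was at 0.168 to 148 FPKM and then at 2526, 610.3 and 298 (log2 difference 4.34, adjusted p = 0.0332), and its call was lost without blastomere 1-1 (3.01). EEF1G reached 50.5, 100.02 and 5.23 FPKM against a 4-cell maximum of 5.34 (log2 difference 4.78, adjusted p = 0.000272). EEF1D and EIF2S1 had log2 differences of 3.67 and 4.41, each with 1 8-cell blastomere under 1 FPKM. EIF2S1 was not called without blastomere 1-2 (4.06) or 1-3 (3.96), nor EIF3H and EIF2S1 without 4-cell embryo 1 (4.37 and 4.23), nor EIF3H without embryo 3 (4.10). Both were also lost without the 4 marked blastomeres (3.77 for EIF3H and 4.25 for EIF2S1). Of 31 genes of the nucleolus and ribosome assembly 2 rose (6.45%), GAR1 among them, and 1 fell (3.23%), near the shares of all genes.

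Of 49 nuclear genes of the respiratory chain and ATP synthase 11 rose, 22.4% against 3.72% of all genes, and 1 fell, with a median of 0.34. COX5A, of cytochrome c oxidase, was at 217, 93.5 and 0.385 FPKM against at most 0.785 (log2 difference 6.43, adjusted p = 0.000148). NDUFA8 of complex I was at 10.98, 121 and 0.0270 (log2 difference 5.28), and SDHD of complex II at 0.0774, 129 and 1.78 (log2 difference 5.10). UQCRQ of complex III, which overlaps GDF9 on the opposite strand, was at 182, 2.90 and 9.85 (log2 difference 5.07). NDUFA8 and SDHD were not called without blastomere 1-2 (2.49 and 0.57), nor UQCRQ without 1-1 (1.92), while COX5A was called without each blastomere in turn. The 13 mRNAs encoded by the mitochondrial genome had no call in limma, none with an unadjusted p under 0.05 and a median of 0.77. ATP6, a subunit of ATP synthase, was at 12192 to 33251 FPKM in the 4-cell blastomeres and at 16463, 51493 and 44711 in the 8-cell blastomeres (log2 difference 0.86, adjusted p = 0.655), and COX1 had a log2 difference of -0.17. Mitochondrial ribosomal proteins had 2 of 49 members called higher (4.08%), MRPL45 and MRPS11, and 1 lower (2.04%), MRPL43, near the 3.72% and 3.25% of all genes. MRPL43 overlaps TWNK on the opposite strand (r = 0.660). Without blastomere 1-3 the log2 difference of MRPL45 was 0.06, and without 1-2 that of MRPS11 was -0.13. MRPL43 was not called without 4-cell embryo 2 (-3.44) or the 4 marked blastomeres (-3.35).

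Of the genes for entry into the endoplasmic reticulum and folding, 5 of 38 rose and none fell, 13.2% against 3.72% of all genes higher, with a median of 1.34. SRP72, of the signal recognition particle, was at 0, 9.74 and 35.1 FPKM against at most 0.431 (log2 difference 3.93, adjusted p = 7.79e-05). DAD1, RPN2 and SPCS1, of the oligosaccharyltransferase and the signal peptidase, had log2 differences of 4.31, 4.25 and 3.49. SPCS1 overlaps NEK4 on the opposite strand (r = 0.673), so its value is uncertain. DAD1 and SPCS1 were not called without blastomere 1-2 (3.27 and 0.61), nor RPN2 without 1-1 (1.01) or 4-cell embryo 1 (3.33). Metabolic enzymes of glycolysis, pyruvate and the citric acid cycle had 4 of 38 called higher (10.5%, against 3.72% of all genes) and a median of 0.09. MPC1, a subunit of the mitochondrial pyruvate carrier, was at 0, 204 and 0.129 FPKM (log2 difference 5.87), SUCLA2 at 118, 0 and 0 (5.04), and DLD at 26.0, 72.3 and 0.514 (4.26). The call for MPC1 rested on blastomere 1-2, without which its log2 difference was -0.15, and that for SUCLA2 on blastomere 1-1, without which it was -0.30. SUCLA2 was also not called without 4-cell embryo 1 (4.96), 2 (4.90) or 3 (5.24) or the 4 marked blastomeres (4.89), nor DLD without blastomere 1-2 (3.01) or embryo 1 (3.85). GCLM, which limits glutathione synthesis, was the 1 of 15 antioxidant genes called (6.67%), at 43.2, 0.0148 and 51.8 FPKM (log2 difference 4.66).

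Proteasome subunits (33 tested, median -0.06), chaperones (22, median 0.20) and splicing factors with hnRNPs (61, median 0.01) had none in limma, and only a few members with an unadjusted p under 0.05 (1 proteasome subunit and 4 chaperones higher, 3 chaperones lower, 1 splicing gene higher and 5 lower). Among 64 genes of RNA polymerase II, its general factors and Mediator 2 rose (3.12%) and 1 fell (1.56%), against 3.72% and 3.25% of all genes, with a median of -0.42. Early genome activation genes known from other mammals had no call among 5 tested and 1 with an unadjusted p under 0.05, with a median of 0.92, and KLF17 among them was at 0 to 334 FPKM before and at 2.15, 116 and 0 afterwards.

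**Figure D3:**
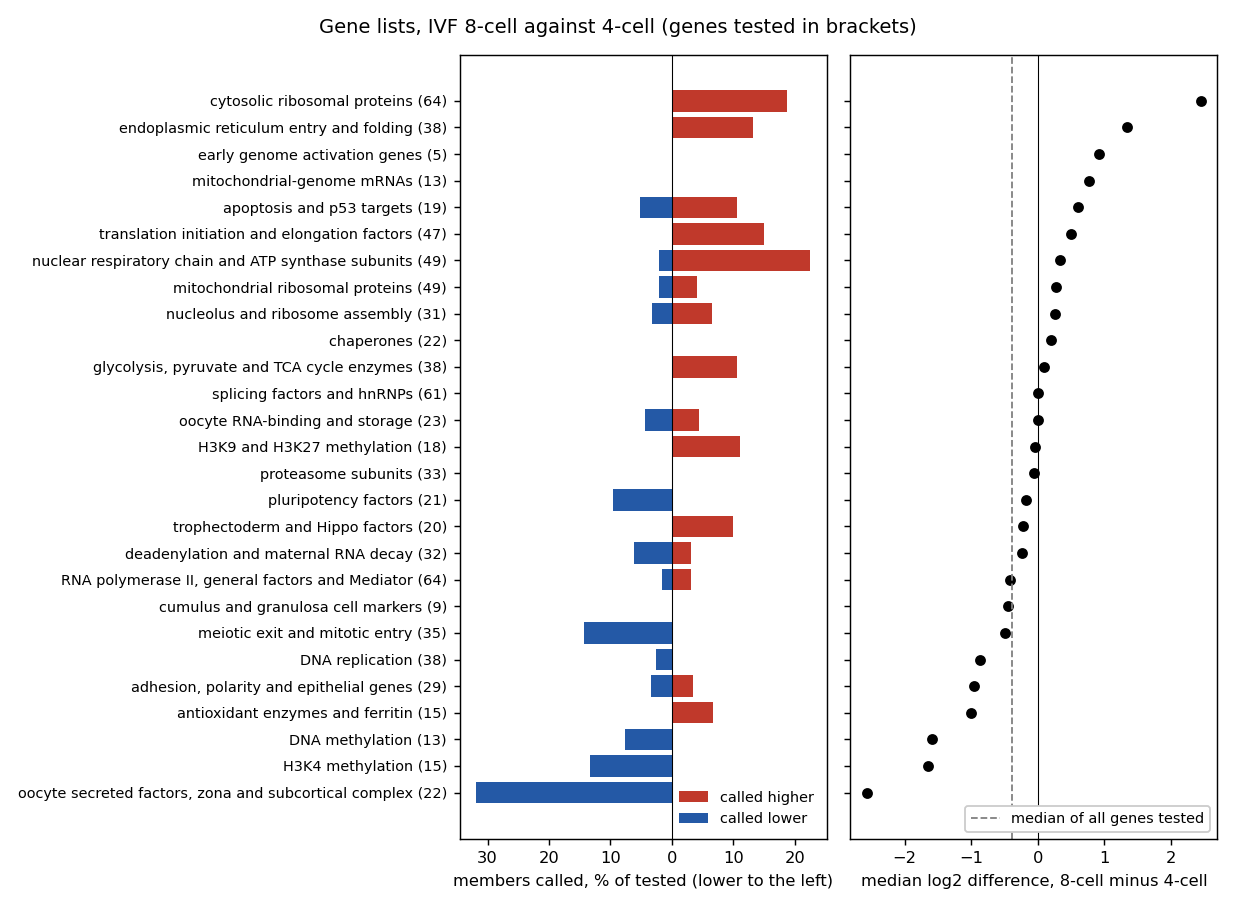
Median log2 difference between the IVF 8-cell embryo and the 4-cell embryos for each gene list (right), with the median of all genes tested (-0.38) as a dashed line, and the share of members called higher and lower (left). The list of sperm markers, with 1 gene tested, is not drawn. Ribosomal proteins (median 2.45, 12 of 64 higher) stand at one end and oocyte secreted, zona and subcortical genes (median -2.56, 7 of 22 lower) at the other.

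All 22 genes tested of the egg coat, oocyte secreted factors and the subcortical maternal complex had a negative log2 difference. Of these 7 fell and none rose, 31.8% against 3.25% of all genes lower, and the median was -2.56. The median member went from 27.1 to 0.116 FPKM. H1FOO, the linker histone of oocytes, is counted with them and was at 0.403 to 335 FPKM and then at 0.457, 0.243 and 0.233 (log2 difference -6.53, adjusted p = 1.81e-06). OOSP2 and ACCSL fell by 4.34 and 4.23 on the log2 scale. ZP4, of the zona pellucida, was not called (log2 difference -2.34, adjusted p = 0.269), with 0.355 and 0.314 FPKM in blastomeres 1-1 and 1-2 but 195 in 1-3, inside the 4-cell range of 92.6 to 553. Nor was GDF9, the partner of BMP15, with 22.0 FPKM in blastomere 1-1 (log2 difference -1.77). Without the 4 marked blastomeres 4 members were called lower and the median was -1.15, against -0.01 over all genes.

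Of 23 oocyte RNA-binding genes 1 rose and 1 fell, 4.35% each way, near the 3.72% and 3.25% of all genes. IGF2BP3, which binds and stabilizes maternal mRNA, was at 125 to 1067 FPKM in the 4-cell blastomeres and at 2.01, 2.25 and 35.0 in the 8-cell blastomeres (log2 difference -5.34, SE 0.53, adjusted p = 2.70e-06). Its relative IGF2BP1 was at most at 0.304 FPKM before and at 0, 88.7 and 0.503 afterwards (log2 difference 4.88, adjusted p = 2.44e-06). The rise of IGF2BP1 came from blastomere 1-2, without which it did not pass the filter on low values. Among 32 genes of deadenylation and RNA decay BTG4 and DCP2, the decapping enzyme, fell (6.25%, against 3.25% of all genes lower). DCP2 fell by 3.09 and was not called without blastomere 1-1 (-2.63) or the 4 marked blastomeres (-1.76). ZFP36L2, which directs decay of AU-rich mRNA, was the 1 member that rose (3.12%, against 3.72% of all genes higher), by a log2 difference of 3.91. It was at 0, 0.0825 and 45.3 FPKM, and without blastomere 1-3 the difference was -0.04.

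Among 35 genes of meiotic exit and mitotic entry 5 fell and none rose, 14.3% against 3.25% of all genes lower. Their median of -0.49 was close to the -0.38 of all genes. FBXO43, or EMI2, which holds metaphase II arrest, went from a median of 42.4 FPKM to at most 0.417 (log2 difference -5.76, adjusted p = 0.000766). CDC25C, the phosphatase that activates CDK1, fell by 5.13 and TTK, a kinase of the spindle checkpoint, by 4.42. Without the 4 marked blastomeres 1 member was called, and FBXO43 (-3.69), CDC25C (-2.07) and TTK (-3.81) were not. POLD3, a subunit of DNA polymerase delta, was the 1 of 38 replication genes called (2.63%, near the 3.25% of all genes lower). It was lower by a log2 difference of -5.42 and at 0.0717, 0.109 and 0 FPKM, and its call too was lost without those blastomeres (-3.91). PCNA had 134, 115 and 41.4 FPKM within a 4-cell range of 4.78 to 2001.

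DNMT1, the maintenance DNA methyltransferase, was at 132 to 1116 FPKM in the 4-cell blastomeres and at 8.13, 31.9 and 83.4 in the 8-cell blastomeres. The embryo means went from 703 ± 273 to 41.2 FPKM (log2 difference -3.996, SE 0.53, adjusted p = 6.53e-05). It was the 1 called of 13 DNA methylation genes (7.69%, against 3.25% of all genes lower), of which 11 had a negative difference (median -1.59). Among 15 H3K4 methylation genes 2 fell (13.3%, against 3.25% of all genes lower), KDM5A (log2 difference -5.13, adjusted p = 0.0301) and ASH2L (-4.04). None of the 15 were called with cells scaled by their median ratio. ASH2L overlaps STAR on the opposite strand (r = 0.837), and neither KDM5A nor ASH2L was called without 4-cell embryo 3 (-5.05 for KDM5A and -3.44 for ASH2L). ASH2L was also lost without the 4 marked blastomeres (-3.07). Among 18 genes of H3K9 and H3K27 methylation CBX1 and KDM4A, a demethylase of H3K9, rose, the latter at 1.72, 24.9 and 0 FPKM (log2 difference 3.17, adjusted p = 0.0126), and 0.76 without blastomere 1-2.

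Of 21 pluripotency genes OTX2 fell by 5.10 and KLF7 by 4.95 on the log2 scale (9.52%, against 3.25% of all genes lower), and none rose. OTX2 was not called without the 4 marked blastomeres (-2.75). KLF5 had 137, 54.9 and 104 FPKM against 0.0200 to 59.2 but was not called (log2 difference 2.56, adjusted p = 0.381). NANOG had 32.6, 0.124 and 0.0464 FPKM within a 4-cell range of 0 to 224. Of 20 trophectoderm and Hippo genes 2 rose, GATA3 and GATA6, against 3.72% of all genes higher, and none fell. The log2 difference was negative for 12 of the 20 and positive for 7. The list's median was -0.22, against -0.38 over all genes, and the median member went from 3.24 to 0.177 FPKM. GATA3, a trophectoderm factor, was at 0, 0.00932 and 103 FPKM (log2 difference 3.95, adjusted p = 0.0402), and without blastomere 1-3 the difference was -1.19. GATA6, known from the primitive endoderm, was at 30.5, 1.59 and 53.5 FPKM (log2 difference 3.65, adjusted p = 0.0414), and was not called without 1-3 (2.86). Without 4-cell embryo 1 neither was called (3.36 for GATA3 and 3.03 for GATA6), nor without embryo 3 (3.37 and 3.23). Among 29 adhesion genes ITGB1 rose, at 61.1, 0.705 and 1.60 FPKM, and RAC1 fell by 3.28. That is 3.45% each way, near the shares of all genes. ITGB1 was not called without blastomere 1-1 (0.15) or embryo 3 (3.24), and RAC1 not without blastomere 1-1 (-3.15) or 1-3 (-3.13) or embryo 1 (-3.04) or 3 (-3.22). Both calls were also lost without the 4 marked blastomeres (2.98 and -2.61). Of 19 apoptosis and p53 genes BAD and CASP6 rose (10.5%, against 3.72% of all genes) and SESN1 fell by 4.47 (5.26%, against 3.25%). BAD and CASP6 had log2 differences of 3.57 and 4.10 and were both at 0 FPKM in blastomere 1-1. BAD was at most at 0.439 FPKM in the 4-cell blastomeres. It passed the filter on low values only through 8-cell cells of IVF and PA embryos, and could be tested in 19 of the 22 alternatives. CASP6 was not called without blastomere 1-3 (3.39) or 4-cell embryo 2 or 3 (3.87 in both fits), and SESN1 not without the 4 marked blastomeres (-3.03).

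The sister blastomeres of the 8-cell embryo differed in many of the genes that rose. In 163 of the 302 (54.0%) 1 blastomere held over 90% of the sum over the 3, and the median share of the highest blastomere was 93.7%. These genes were spread over the blastomeres, 47 in 1-1, 68 in 1-2 and 48 in 1-3. At least 1 FPKM was reached in all 3 blastomeres by 63 genes, in 2 by 109 and in 1 by 130. Among all genes with a mean of 10 FPKM or more in the 8-cell embryo, 41.6% of 1696 had over 90% in 1 blastomere, against 20.6% of 1790 in the 3 sampled blastomeres of 4-cell embryo 1. In 4-cell embryo 1, over 90% lay in 1 blastomere for 129 of the 223 detected genes that rose later (57.8%, median share 97.1%). The 302 genes were mostly near 0 FPKM there, with a median of 0.00402 averaged over its blastomeres, against 6.38 in the 8-cell embryo. Their shares in the 2 embryos thus come from unlike levels and cannot be compared. Ribosomal proteins had over 90% in 1 blastomere for 5 of 62 in the 8-cell embryo and for 31 of 51 (60.8%) in 4-cell embryo 1. Levels differed here too, with a summed FPKM of 3215 to 6159 in the 8-cell blastomeres and 63.5 to 207 in those of 4-cell embryo 1. The falls were shared, since 184 of the 264 genes that fell were under 1 FPKM in all 3 blastomeres, 59 in 2, 15 in 1 and 6 in none. The genes had been called on the mean of these blastomeres, so the shares are a description with no test.

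**Figure D4:**
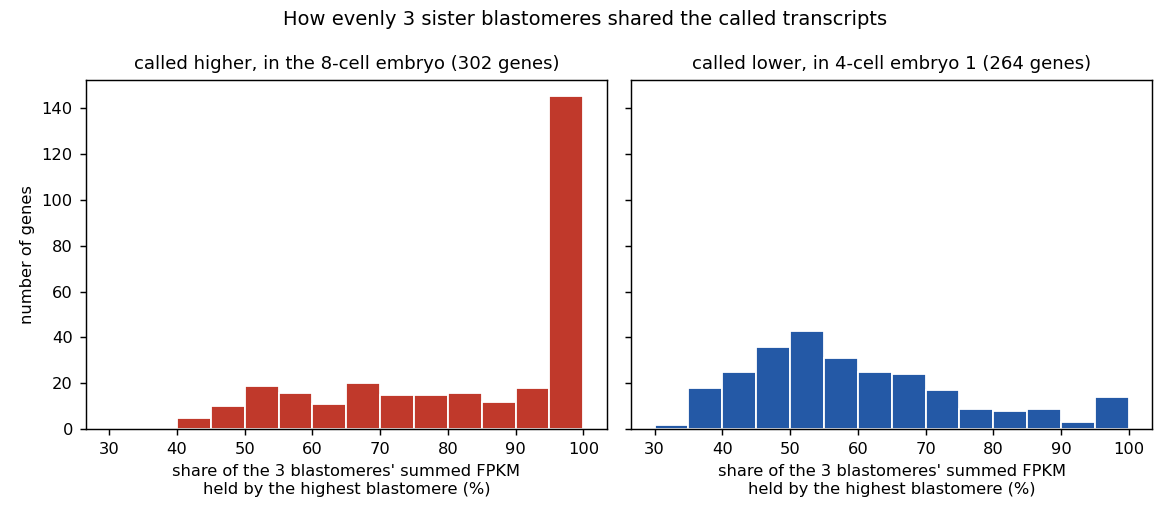
Number of genes by the share of the summed FPKM of 3 sister blastomeres that the highest blastomere held, for the 302 genes that rose in the 8-cell embryo (left) and the 264 that fell, in 4-cell embryo 1 (right). The median share was 93.7% on the left, where most genes lie above 90%, and 56.5% on the right.

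This unevenness set how far a call rested on 1 cell. When each 8-cell blastomere was left out in turn, 67 of the 302 rises and 247 of the 264 falls were called in all 3 fits. When each 4-cell embryo was left out in turn, 231 rises and 207 falls were called in all 3 fits. Together 65 rises and 203 falls were called in all 6. A mean near 0 over the 3 8-cell blastomeres requires each of them to be low, so leaving 1 out tests the falls little. Without the 4 marked 4-cell blastomeres 262 of the 302 rises and 87 of the 264 falls were called. Of all 302 rises the number at 1 FPKM or more was 18 to 71 in the 4-cell blastomeres and 167, 203 and 167 in the 8-cell blastomeres, and of all 264 falls the number under 1 FPKM was 10 to 140 and then 244, 219 and 222. Blastomere 2-2 carried 71 of the rises and blastomere 3-1 lacked 140 of the falls, so the 4-cell cells differed among themselves. Across genes, Pearson's r of log2 values was 0.455 to 0.505 for the 3 pairs of 8-cell sisters, 0.262 to 0.573 for the 10 pairs of 4-cell sisters and 0.192 to 0.474 between stages. Genes are not independent replicates, and these r values also reflect depth.

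The same step in PA embryos, with 9 4-cell blastomeres of 3 embryos and 3 8-cell blastomeres of 1 embryo, gave 553 higher genes (6.81%) and 258 lower genes (3.18%). Of the 302 genes that rose in IVF embryos, 206 had the same sign in PA embryos and 112 were called there too, which is 37.1% of the IVF rises and 20.3% of the PA rises. Their median log2 difference was 3.90 in IVF and 0.76 in PA embryos, the IVF value being the one that chose them. Of the 264 falls, 214 had the same sign and 101 were called in PA, 38.3% of the IVF falls and 39.1% of the PA falls, with a median of -2.37. Over all genes tested 64.0% had the same sign. Ribosomal proteins had 34 of 64 members called higher in PA embryos, at a median of 3.00, and oocyte secreted, zona and subcortical genes had 9 of 22 called lower, at -1.97. No member of either list differed between the 2 steps by the limma test of the difference.

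That test called 72 genes in which the IVF step was higher (0.887%) and 160 in which it was lower (1.97%). Among the named rises QARS, BSG and ASNA1 differed. ASNA1 had a log2 difference of 5.42 in IVF and -0.13 in PA embryos (difference of the steps 5.55, SE 0.63, adjusted p = 7.55e-05). QARS had 6.99 and -0.01 (6.997, adjusted p = 0.00825), and BSG 5.81 and -3.11 (8.92, adjusted p = 0.0071). Among the named falls SMAD5, ESCO2 and DNAJC21 differed. SMAD5 fell in IVF embryos and had 143 FPKM at the 4-cell and 89.8 FPKM at the 8-cell stage of PA embryos (difference of the steps -5.50, adjusted p = 0.00618). DNAJC21 rose in PA embryos, from 4.10 to 135 FPKM, and was called in opposite directions (difference of the steps -10.72, adjusted p = 0.00201). ESCO2 fell in both, with a difference of -3.62 (adjusted p = 0.0433). NUP107, of the nuclear pore, was at 49.3 and 98.1 FPKM in IVF and at 81.4 and 0.214 FPKM in PA embryos (difference of the steps 7.01, adjusted p = 0.000444). TNFRSF12A, a receptor of the TNF family, was at 88.8 and 0.0137 FPKM in IVF and at 0 and 235 FPKM in PA embryos (-12.60, adjusted p = 0.00875). Neither NUP107 nor TNFRSF12A was called in the IVF step itself. Each 8-cell group held 1 embryo, so method and embryo cannot be told apart at that stage.

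**Figure D5:**
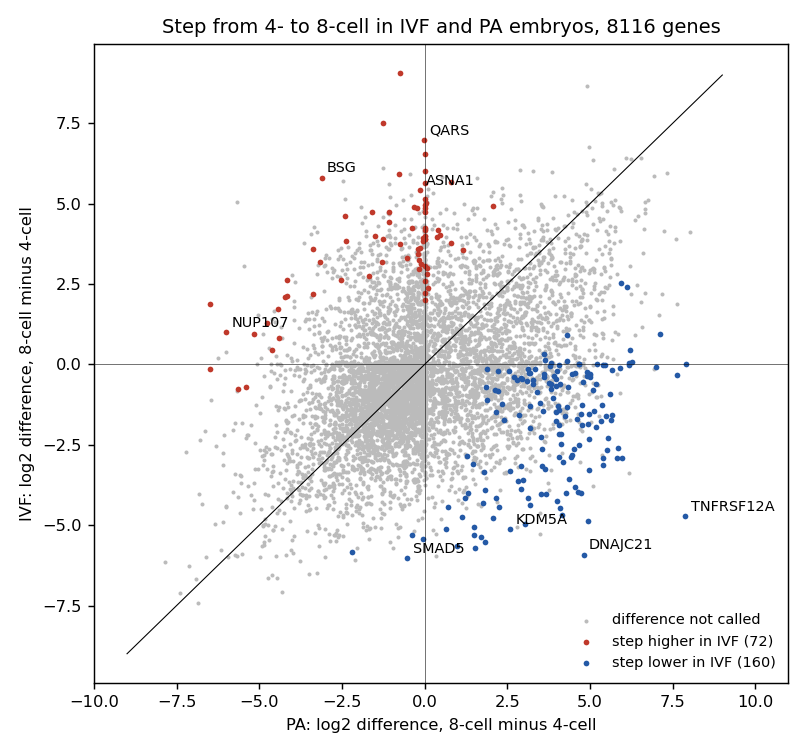
Log2 difference from the 4-cell to the 8-cell stage in IVF embryos (vertical) against the same in PA embryos (horizontal) for the 8116 genes tested, with the 72 genes whose step was higher in IVF and the 160 whose step was lower in colour and equal steps as a diagonal. DNAJC21 lies at -5.92 in IVF and 4.80 in PA embryos, and ASNA1 at 5.42 and -0.13.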

How the data were processed

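By the methods of the study, the authors lysed single blastomeres, amplified cDNA from transcripts with or without poly(A) tails, sequenced it, mapped reads with HISAT2 to the pig genome Sscrofa11.1 and deposited FPKM values per gene. Versions and the strand setting of the counting are not given in the sources used here. The labels describe a bulk extraction of oocytes, which differs from this, so a bias of amplification in the FPKM could not be checked. Whole reads could be recovered from the deposited FPKM for all 14692 genes above 0, which gave the depth. No count test was run on them.

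Embryo means of FPKM were taken as log2(FPKM + 1) and tested in limma 3.58.1 under R 4.3.3 with a mean-variance trend, 20 embryos of 8 groups sharing 1 estimate of the spread, after a filter of 1 FPKM in 3 cells. Thresholds were 2-fold and an adjusted p of 0.05 (Benjamini-Hochberg over all genes tested). Whether embryos came from separate collections is not stated. The p-values measure the spread between these embryos within the 1-, 2- and 4-cell groups, since each 8-cell group is 1 embryo. For a gene near 0 FPKM at those stages this spread is small, as for BAD (SE 0.35, at 0, 28.7 and 5.82 FPKM in the 8-cell blastomeres). Tables and figures were made in Python 3.11.15 with pandas 2.3.3, scipy 1.17.1 and matplotlib 3.10.9, and sequences were read with pysam 0.24.0.

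Genes were named by 4 rules: the 15 largest rises and falls with a symbol and no overlap between blastomeres (at most 2 without a symbol each way), up to 4 called members each way of each list and members of the oocyte, cell cycle, methylation and lineage lists, genes the study names, and up to 10 called genes each way by difference from PA embryos. Some genes that they cover are not reported here. Members and lists were chosen with earlier results of these data known. Alternatives varied the pseudocount, filter, scaling, unit, groups fitted and libraries.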

Additional observations from a re-analysis of the deposited data

Results flagged for a closer look

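Among the 9 IVF 4-cell blastomeres, 44 measures were looked at for a cell standing apart from the others by Dixon's criterion, and 15 had one. Chance gives about 1 in 20 such groups, and expression values near 0 with 1 higher cell meet the criterion easily. Blastomere 1-1 had the fewest genes detected, 4367. Blastomere 2-2 stood apart in the summed FPKM of cumulus and granulosa markers (75.4) and in the number of rises already at 1 FPKM or more (71). It was also the high cell for BSG (5.12 FPKM), EMC7 (0.543), IPMK (0.786), ASNA1 (1.56) and ENSSSCG00000023323 (11.5). Whether the marker level of blastomere 2-2 plays a part in these values was not tested. Blastomere 3-1 was the high cell for QARS (0.175 FPKM) and CRABP2 (15.3), 3-4 for EXOSC5 (3.07), 3-3 for CBX1 (1.75), 3-2 for NEK9 (0.199), 1-2 for SDAD1 (1.77) and 1-4 for ENSSSCG00000022773 (3.25).

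The step from 4 to 8 cells differed between IVF and PA embryos, by the limma test of the difference, for 28 of the 139 named genes reported on here. The step was higher in IVF embryos, on the log2 scale, by 9.82 for ENSSSCG00000033838, 8.92 for BSG, 8.79 for ENSSSCG00000032168, 8.38 for ENSSSCG00000035907, 7.02 for ENSSSCG00000016737, 7.01 for NUP107, 7.0 for QARS, 6.97 for ENSSSCG00000034711, 6.78 for TADA3, 6.68 for CMSS1, 5.55 for ASNA1, 4.47 for KDM4A and 2.41 for BAD. It was lower, with differences of -12.60 for TNFRSF12A, -10.72 for DNAJC21, -9.80 for HMG20B, -8.89 for DMTF1, -8.74 for DNAJC2, -8.73 for TLK1, -8.61 for TICRR, -8.56 for SGTB, -8.50 for VPS52, -7.89 for PABPC5, -7.70 for KDM5A, -7.69 for MRPL43, -5.50 for SMAD5, -3.66 for FTL and -3.62 for ESCO2. FTL overlaps GYS1 on the opposite strand and followed it over the 42 cells (r = 0.997). ENSSSCG00000032168, BAD, CMSS1, TNFRSF12A and KDM4A passed the filter on low values in only 18, 19, 19, 20 and 21 of the 22 alternatives. ENSSSCG00000035907, NUP107, ENSSSCG00000034711, TADA3, TNFRSF12A, DMTF1, DNAJC2, TLK1, SGTB, VPS52, PABPC5 and FTL were not called in the IVF step itself. Over all genes tested the step was higher in IVF embryos for 0.887% and lower for 1.97%. Up to 10 of the listed genes each way were named because of this difference, so the 28 of 139 is no result about the named genes. Each 8-cell group is 1 embryo.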

How the results depend on the processing

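The 566 genes called in IVF embryos became 853 without a filter on low values and 1156 with cells scaled by their median ratio (997 higher, 159 lower). They became 0 when the 4-cell and 8-cell groups were fitted alone, where 809 genes had an unadjusted p under 0.05 in limma. Higher and lower genes numbered 146 and 428 with 0.1 FPKM added, 412 and 169 with 5 FPKM added, 171 and 265 with a filter of 5 FPKM, 297 and 153 with blastomeres as units and the embryo as a random block, and 360 and 92 without 4-cell blastomeres 1-2, 1-4, 3-2 and 3-3. Leaving out a library gave 600 to 862 genes, the most without 4-cell embryo 2. Median-ratio scaling moved the median of all genes from -0.38 to -0.04. In PA embryos 811 genes became 1532 with median-ratio scaling, 457 with means of log2 values, 471 with the random block and 97 with the groups alone. The 232 differences between the steps became 146 and 452 with 0.1 and 5 FPKM added, 721 without a filter, 92 with a filter of 5 FPKM, 145 with nuclear genes rescaled, 1098 with median ratios, 50 with means of log2 values, 74 with the random block, 122 with the groups alone and 154 without the 4 IVF blastomeres. Leaving out a library gave 193 to 352, the most without IVF 4-cell embryo 1. The cause was not tested. The named log2 differences that turned round did so without 1 8-cell blastomere, for MRPS11 (-0.13 to 4.80 over the libraries left out) and MPC1 (-0.15 to 6.45) without 1-2, ZFP36L2 (-0.04 to 4.47) and GATA3 (-1.19 to 5.13) without 1-3, and SUCLA2 (-0.30 to 5.61) without 1-1. Of 2119 alternative values for the 97 named calls, 1794 kept their call, 320 lost it and 5 turned round. No paired analysis was possible because the 8-cell group holds 1 embryo and the replicate numbers name blastomeres, not linked embryos.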
